A study of Homo sapiens with 24 samples.

Results

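The genes described here are 7 metallothioneins (MT1E, MT1F, MT1G, MT1H, MT1M, MT1X and MT2A), the metal-responsive transcription factor MTF1 and the zinc exporter SLC30A1. They were chosen by name, as the rows of the gene count table whose Ensembl identifiers carry these symbols, and all 9 were found among its 14585 genes. Earlier results of these data were known when they were chosen, so counts of them set beside all genes are descriptions only. RNA was sequenced from A549 cells, a human lung carcinoma line, and from Huh7 cells, a human hepatocellular carcinoma line, both labelled wild type. The study's authors state that p53 is wild type in A549 and mutant in Huh7. Each line had a control group and a group for each of 3 herb extracts, from Pulsatilla chinensis (P. chinensis), Bupleurum chinense (B. chinense) and Polyporus umbellatus (P. umbellatus). This gave 8 groups of 3 replicates, 24 libraries in all. The herbs had been extracted with ethanol and dissolved in DMSO. The dose, the treatment time and the vehicle of the sequenced controls are not given in the sources used here, and nothing states that replicates were separate cultures, so the p-values measure the spread between these libraries, which may be technical.

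Metallothioneins are small, cysteine-rich proteins that bind zinc and copper in the cytosol and buffer free zinc. MTF1 senses zinc and switches on their genes through short promoter motifs called metal response elements, and the same factor drives SLC30A1, which moves zinc out of the cell through the plasma membrane. In liver cells metallothioneins are also known to be induced by glucocorticoids, inflammatory signals and stress, and the SLC30 exporters and SLC39 importers share the control of zinc with them.

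The 7 metallothionein genes lie close together. On chromosome 16 of GRCh38 (GENCODE annotation) MT2A spans 56608584-56609497, MT1E 56625475-56627112, MT1M 56632659-56633981, MT1F 56657731-56660698, MT1H 56669814-56671129 and MT1X 56682470-56684196, all on the plus strand. MT1G (56666730-56668065) lies between MT1F and MT1H on the minus strand. With MT1A, a further metallothionein of the table that was not among the chosen genes, they occupy 75.6 kb. Both MTF1 (37809574-37859592) and SLC30A1 (211571568-211579161) lie on the minus strand of chromosome 1.

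The promoters that RefSeq (GRCh38.p14) gives for MT2A, MT1X, MT1H and SLC30A1 are shown because MTF1 acts through them. Each line holds the 250 bases before the transcript start, 5′ to 3′ on the gene's strand, with matches to the metal response element core in capitals. The core was searched as TGCACNC or TGCGCNC on both strands, so a match on the other strand reads GNGTGCA or GNGCGCA.
MT2A, chr16:56608334-56608583: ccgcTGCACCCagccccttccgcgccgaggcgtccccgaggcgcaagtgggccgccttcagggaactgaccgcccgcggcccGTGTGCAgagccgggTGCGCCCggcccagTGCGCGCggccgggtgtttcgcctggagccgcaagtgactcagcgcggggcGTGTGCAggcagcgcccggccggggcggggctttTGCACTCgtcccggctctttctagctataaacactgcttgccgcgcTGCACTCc
MT1X, chr16:56682220-56682469: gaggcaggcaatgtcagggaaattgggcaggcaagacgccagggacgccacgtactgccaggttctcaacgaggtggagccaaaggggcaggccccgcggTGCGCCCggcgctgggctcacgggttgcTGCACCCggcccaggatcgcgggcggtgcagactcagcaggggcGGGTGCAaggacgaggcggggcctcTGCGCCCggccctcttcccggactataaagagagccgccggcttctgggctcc
MT1H, chr16:56669564-56669813: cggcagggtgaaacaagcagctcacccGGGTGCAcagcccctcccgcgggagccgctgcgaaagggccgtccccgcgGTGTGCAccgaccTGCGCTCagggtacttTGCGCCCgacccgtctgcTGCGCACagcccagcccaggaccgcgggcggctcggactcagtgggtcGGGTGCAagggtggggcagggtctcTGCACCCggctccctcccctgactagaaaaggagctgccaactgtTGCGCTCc
SLC30A1, chr1:211579162-211579411: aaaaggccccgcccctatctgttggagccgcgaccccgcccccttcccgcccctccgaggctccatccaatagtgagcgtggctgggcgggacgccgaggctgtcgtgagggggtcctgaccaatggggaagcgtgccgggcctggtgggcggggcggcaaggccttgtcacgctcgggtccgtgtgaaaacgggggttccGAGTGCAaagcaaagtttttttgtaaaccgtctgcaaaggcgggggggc
The MT1H window held 8 matches, the MT2A window 7 and the MT1X window 4. The SLC30A1 window held 1 match, 43 to 49 bases before the start on the other strand, and the MTF1 window 0. Of 35116 promoter windows of the same length, 24.83% held at least 1 match, 0.37% at least 4 and 0.03% at least 7. A match is a description of the letters and not a shown binding site. No promoter entry was at hand for MT1E, MT1F, MT1G and MT1M.

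**Figure D1:**
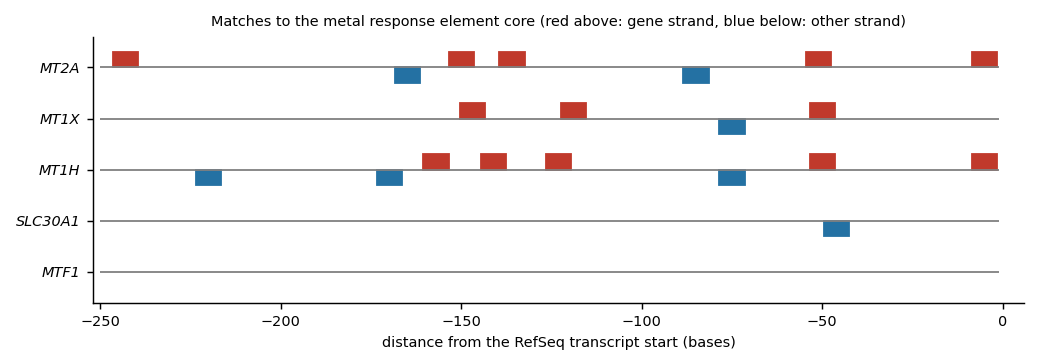
Positions of the core matches in the 250 bases before the RefSeq start of 5 of the genes (x axis, bases from the start). Red boxes above a line are matches on the gene's strand and blue boxes below are on the other strand; MT2A, MT1X and MT1H carry 7, 4 and 8 boxes, SLC30A1 carries 1 and MTF1 carries 0.

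The libraries held 6803704 to 24345541 estimated counts over protein-coding genes. In Huh7 the control and P. chinensis libraries were the deepest, at 13259204 to 24345541 counts against 7182444 to 11546100 for the other herbs. Both lines carried their own markers. KRT7 lay at 1550 to 1770 CPM (counts scaled to a common library total) in A549 and at most 0.123 CPM in Huh7, and albumin (ALB) at 2750 to 4880 CPM in Huh7 and at most 0.714 CPM in A549. Levels are CPM scaled with TMM factors over all 24 libraries. Each is a mean over the cells of a library, so fewer cells with an mRNA and less of it per cell cannot be told apart. P. umbellatus replicate 2 of Huh7 stood apart from its group. A chi-square between the counts of each replicate pair was taken per gene. Its median over genes, divided by the median expected from counting error alone, was 13.3 and 17.6 for the pairs with replicate 2. Replicates 1 and 3 of that group gave 5.36, against a median of 3.29 over all replicate pairs.

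Untreated Huh7 cells carried more metallothionein mRNA than untreated A549 cells, and more kinds of it. The summed level of the 8 metallothioneins of the table was 175 ± 7.91 CPM (SD, n = 3) in Huh7 control and 39.2 ± 4.35 CPM in A549 control, a ratio of 4.47. In A549 control MT2A made up 73.4 to 80% of the sum and MT1X 16.9 to 19.9%. In Huh7 control MT1E made up 36 to 36.9%, MT2A 24.4 to 25.3%, MT1X 11.5 to 12.1%, MT1G 10.4 to 11.7% and MT1F 9.6 to 10.8%.

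MT1E, MT1G and MT1H had 0 counts in each of the 12 A549 libraries, treated ones included. MT1M had 2 counts in all, 1 with P. chinensis and 1 with B. chinense. Against a limit of 3 counts per library, the mean level in Huh7 control was at least 171-fold higher for MT1E, at least 52.4-fold for MT1G, at least 11.9-fold for MT1H and at least 11.2-fold for MT1M. These 4 genes fell under the filter on low counts in A549, a mean of 5 counts over the line's libraries, so 5 of the 9 genes were tested there and all 9 in Huh7.

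Of the 5 genes tested in both lines, 3 were lower in A549 control than in Huh7 control and 0 higher with edgeR, as with DESeq2, against 34.9% and 33.8% of 12924 genes tested. At an unadjusted p below 0.05, 4 were lower and 0 higher. MT1F, a type 1 metallothionein, differed most. It lay at 0.2944, 1.369 and 2.021 CPM in A549 and at 15.86, 17.34 and 19.3 CPM in Huh7 (log2 difference -3.65, SE 0.29, adjusted p = 2.008e-10). MT1X was lower by a log2 difference of -1.47 (adjusted p = 2.287e-07) and MTF1 by -0.32 (adjusted p = 0.001712). MT2A, the main type 2 isoform, did not pass at -0.50 (adjusted p = 0.05981), and SLC30A1 did not at 0.10 (adjusted p = 0.2065). The line cannot be told apart from anything else that differed between the cultures.

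Levels of different genes can be ordered only per length of transcript, taken here as the full reference transcript. No correction was made for fragment length, which bears most on short transcripts. The order between genes of unlike length, such as a metallothionein and SLC30A1 or MTF1, is therefore uncertain. Per kb of its reference transcript, MT2A ranked first in A549 control at 75 ± 5.87 CPM per kb (SD, n = 3), ahead of SLC30A1 at 27.7 ± 0.246, MT1X at 17.8 ± 3.33, MTF1 at 5.48 ± 0.283 and MT1F at 2.89 ± 2.05. The ranges of neighbours in that order did not overlap. In Huh7 control the order was MT2A at 108 ± 2.92 CPM per kb, MT1E at 85.6 ± 3.11, MT1X at 51.1 ± 2.53, MT1G at 47.7 ± 2.26 and MT1F at 41.2 ± 4.07. SLC30A1 followed at 26.3 ± 1.23, then MT1H at 11.2 ± 3.89, MT1M at 10.5 ± 1.33 and MTF1 at 6.92 ± 0.575. There MT1X and MT1G overlapped in their ranges, and so did MT1H with its neighbour MT1M.

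With P. chinensis, 6 of the 7 metallothioneins and MTF1 rose in Huh7 cells, and SLC30A1 did not pass the test. The summed metallothionein level was 386 to 449 CPM against 166 to 180 CPM in control, 2.33 times the control mean. The 7 genes higher are set against 10.5% of 13875 genes called higher, and the 0 lower against 10.5% called lower. That is a description and not a test, since the genes were chosen with earlier results of these data known. DESeq2 also called 7 higher and 0 lower, and 7 were higher and 0 lower at an unadjusted p below 0.05. For the same 7 genes all 3 treated libraries lay above all 3 controls, as they did for 21.4% of the genes tested. The median log2 fold change of the metallothioneins was 1.19, beside 0.01 over all genes tested.

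MT2A rose most in this comparison. It lay at 41.95, 43.8 and 44.12 CPM in the control libraries and at 119.4, 120.5 and 158.2 CPM with P. chinensis (log2 fold change 1.67, SE 0.25, adjusted p = 0.0005). Every treated library was above every control, and replicate 3 was the highest. Its share of the summed level was 30.9 to 35.3% with P. chinensis and 24.4 to 25.3% in control.

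MT1M, a scarce type 1 isoform, lay at 3.775, 3.992 and 4.784 CPM in control and at 11.74, 12.96 and 12.98 CPM with P. chinensis (log2 fold change 1.62, SE 0.25, adjusted p = 0.0007197). MT1X lay at 19.63, 20.63 and 21.68 CPM in control and at 49.04, 50.3 and 55.73 CPM with P. chinensis (log2 fold change 1.38, SE 0.16, adjusted p = 8.693e-05). In both genes the treated libraries lay close together and far above the controls. MT1G lay at 18.75, 19.34 and 20.57 CPM in control and at 40.83, 43.79 and 44.54 CPM with P. chinensis (log2 fold change 1.19, SE 0.22, adjusted p = 0.002094). MT1E, the isoform with the largest share of the sum in control cells, lay at 61.2, 64.68 and 65.6 CPM in control and at 124.4, 124.9 and 135.1 CPM with P. chinensis (log2 fold change 1.06, SE 0.16, adjusted p = 0.0006929). MT1F lay at 15.86, 17.34 and 19.3 CPM in control and at 29.43, 29.96 and 31.99 CPM with P. chinensis (log2 fold change 0.85, SE 0.14, adjusted p = 0.0008551). The groups did not overlap in any of these genes.

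MT1H, whose promoter window held the most core matches of those searched, did not pass the test. Its control libraries spread over 2.936, 4.397 and 6.027 CPM and overlapped the treated ones at 5.294, 5.356 and 7.388 CPM (log2 fold change 0.48, SE 0.25, adjusted p = 0.2089). MT1A, outside the chosen genes, did not pass either (log2 fold change 0.91, adjusted p = 0.05516). MTF1, which activates these genes when zinc is high, lay at 49.64, 57.21 and 57.85 CPM in control and at 70.79, 71.12 and 74.38 CPM with P. chinensis (log2 fold change 0.45, SE 0.09, adjusted p = 0.005125). SLC30A1, the zinc exporter known as a target of the same factor, lay at 146.3, 158.6 and 159.2 CPM in control and at 142, 146 and 148 CPM with P. chinensis (log2 fold change -0.03, SE 0.08, adjusted p = 0.8252). The exporter's groups overlapped.

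Several measures moved with this comparison, and their part in it was not tested. The reference transcripts of the metallothioneins are short, at 397 to 425 bases and 746 for MT1E. Over 327 other genes with a transcript of at most 700 bases the median log2 fold change was 0.13, with 9.17% called higher. The 6 hepatocyte markers summed to 11900 to 12700 CPM with P. chinensis and 20300 to 20700 CPM in control. The 4 fibroblast markers summed to 21.5 to 31.3 CPM and 12.6 to 16 CPM, and COL1A1 among them was at 0 in at least 1 Huh7 library. The calls of the 7 genes held under each of the 19 other settings run, those without 1 library included, with MT2A between 1.53 and 1.72 on the log2 scale and MTF1 between 0.36 and 0.50.

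**Figure D2:**
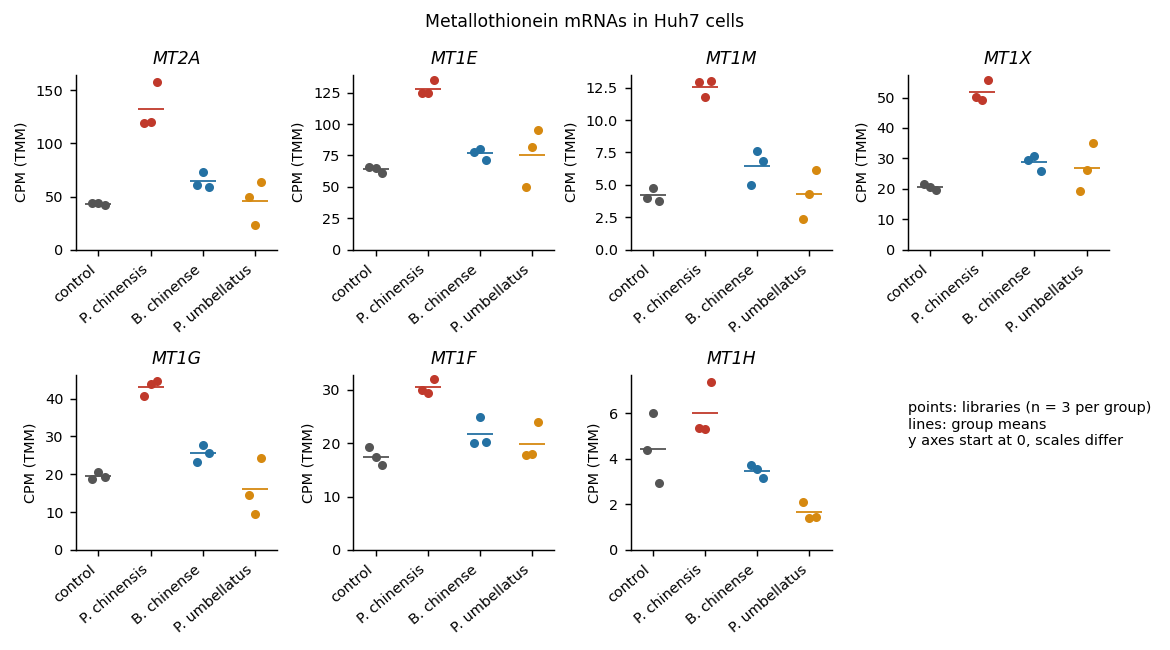
Level of 7 metallothionein mRNAs in Huh7 cells (y axis, CPM with TMM scaling, from 0) by group, with 1 point per library and a line at each mean of 3. The P. chinensis libraries lie above the controls for all but MT1H, MT2A reaching 119.4 to 158.2 CPM against 41.95 to 44.12 CPM, while the P. umbellatus libraries are widely spread.

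With B. chinense 6 of the 7 metallothioneins of Huh7 had fold changes above 0 and MT1H one below 0, and 0 of the 9 genes passed the adjusted test in either direction with edgeR or with DESeq2. Across the 13875 genes 0.519% were called higher and 0.757% lower. At an unadjusted p below 0.05, 5 were higher (MT1F, MT1M, MT1X, MT2A and MTF1, named after their values were seen) and 0 lower. For 7 of the 9 genes all 3 treated libraries lay above all 3 controls, against 11.6% of the genes tested. The exceptions were SLC30A1 and MT1H, which lay at 3.14, 3.544 and 3.74 CPM (log2 fold change -0.32, SE 0.27, adjusted p = 0.7227).

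MT2A was at 59.15, 61.19 and 72.91 CPM with B. chinense (log2 fold change 0.59, SE 0.25, adjusted p = 0.3412). MT1X was at 25.88, 29.61 and 30.65 CPM (log2 fold change 0.49, SE 0.16, adjusted p = 0.2002). Neither range reached its controls, while both differences stayed short of the threshold. When the 6 libraries compared were fitted alone, 4 of the genes passed (MT1E, MT1G, MT1X and MT2A, with adjusted p = 0.02287, 0.03922, 0.01727 and 0.003277). Without P. umbellatus replicate 2, which adds to the shared estimate of the spread, 1 passed, MT2A (adjusted p = 0.01485). The summed level was 215 to 249 CPM, 1.31 times control, and the median log2 fold change of the metallothioneins was 0.40 beside 0 over all genes. Over the short transcripts it was -0.10.

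In Huh7 cells given P. umbellatus, MT1H fell, MTF1 and SLC30A1 rose, and the other 6 metallothioneins did not pass the test with edgeR. The 2 genes higher and 1 lower, of 9 tested, lie near the shares over all genes, 19.3% higher and 17.8% lower. MT1H lay at 1.389, 1.447 and 2.11 CPM, below its control range of 2.936 to 6.027 CPM (log2 fold change -1.30, SE 0.29, adjusted p = 0.005969). These treated libraries held 10 to 18 counts of it. MTF1 was at 62.61, 65.03 and 78.67 CPM (log2 fold change 0.38, SE 0.10, adjusted p = 0.01061). SLC30A1 was at 169.7, 172.7 and 201.8 CPM (log2 fold change 0.28, SE 0.08, adjusted p = 0.01806). The groups did not overlap for these 3 genes.

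The calls with P. umbellatus depended on the tool and the libraries fitted. DESeq2 called 3 genes higher and 1 lower, the further one being MT1X (log2 fold change 0.42, adjusted p = 0.04496; edgeR 0.43, adjusted p = 0.05436). In the fit of the 6 libraries compared, 0 genes passed in either direction (adjusted p = 0.05129 for MT1H, 0.1071 for MTF1 and 0.1148 for SLC30A1). All 3 calls held without P. umbellatus replicate 2. MTF1 was lost without control replicate 2 (adjusted p = 0.0661), and SLC30A1 without control replicate 1 or control replicate 2 (adjusted p = 0.07166 and 0.05428). Without P. umbellatus replicate 1, MT1E (log2 fold change 0.52, adjusted p = 0.002968) and MT1X (0.62, adjusted p = 0.006708) passed as higher. Without replicate 2 MT2A passed as higher (0.45, adjusted p = 0.02979), and without replicate 3 MT1G passed as lower (-0.61, adjusted p = 0.00928).

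The P. umbellatus libraries of Huh7 were widely spread. MT2A lay at 23.34, 49.71 and 64.15 CPM, on both sides of its controls (log2 fold change 0.15, SE 0.25, adjusted p = 0.6787). In replicate 2 MT2A took 14% of the summed level and MT1E 49%, where the other Huh7 libraries had at least 24.4% and at most 37.6%. MT1G was also lowest in that library, at 9.448 CPM against 14.66 and 24.41 CPM. The summed level was 192.4 ± 53.4 CPM (SD, n = 3), against an SD of 7.91 to 35.5 CPM in the other Huh7 groups. The median log2 fold change of the short transcripts was -0.36 here, and its part in the result was not tested.

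P. chinensis was then set directly against the other herbs in Huh7, since comparisons with the same controls do not show that herbs differ. Against P. umbellatus all 7 metallothioneins were higher with P. chinensis and SLC30A1 was lower, where 16.5% and 18.8% of all genes were called. The differences ran from 0.61 for MT1F (SE 0.14, adjusted p = 0.005837) and 0.76 for MT1E (SE 0.17, adjusted p = 0.00446) to 1.52 for MT2A (SE 0.25, adjusted p = 0.001114) and 1.78 for MT1H (SE 0.29, adjusted p = 0.001063), on the log2 scale. The 7 calls held under each of the 19 other settings run. SLC30A1 differed by -0.32 (SE 0.08, adjusted p = 0.01042), a call lost when the 6 libraries compared were fitted alone (adjusted p = 0.06654). MTF1 differed by 0.07 and did not pass (adjusted p = 0.6018). Of the 327 short transcripts 39.4% were called higher in this comparison, with a median of 0.38, and their part in it was not tested.

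Against B. chinense 6 metallothioneins were higher with P. chinensis and 0 genes lower, with 3.89% and 3.91% of all genes called. DESeq2 called 6 and 0, and 8 were higher and 0 lower at an unadjusted p below 0.05. MT2A differed by 1.08 (SE 0.24, adjusted p = 0.01813) and MT1X by 0.88 (SE 0.16, adjusted p = 0.005476). MT1H (0.80, adjusted p = 0.08997) and MTF1 (0.21, adjusted p = 0.2203) did not pass. MT1X kept its call under each of the 19 other settings. The count of 6 dropped to 1 without B. chinense replicate 1, B. chinense replicate 3 or P. chinensis replicate 3. It was 3 without P. chinensis replicate 1, P. chinensis replicate 2, control replicate 2 or control replicate 3, and no setting changed a direction among these 6 genes.

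In A549 cells the metallothioneins tested did not pass with any herb, and SLC30A1 rose with each of the 3. With each herb 1 of the 5 genes tested was called higher and 0 lower. Of 13633 genes tested, the calls for P. chinensis were 15.8% higher and 17.1% lower. The shares were 13.1% and 15% for B. chinense, and 13.4% and 14.8% for P. umbellatus. DESeq2 gave the same counts, and at an unadjusted p below 0.05 1 gene was lower with P. chinensis (MT1X) and 0 with the other herbs.

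SLC30A1 lay at 162.1, 162.6 and 164.8 CPM in A549 control. It was at 197.2, 199.9 and 201.9 CPM with P. chinensis (log2 fold change 0.26, SE 0.05, adjusted p = 0.001745). With B. chinense it was at 178.2, 200.6 and 206.7 CPM (log2 fold change 0.22, SE 0.05, adjusted p = 0.006801). The first 2 calls held under each of the 19 other settings run. With P. umbellatus it was at 184.3, 184.6 and 200.2 CPM (log2 fold change 0.16, SE 0.05, adjusted p = 0.0431). Here too the treated libraries all lay above the controls, yet the call was lost in 9 of 19 other settings. Those were the fit with the replicate number as a block (adjusted p = 0.05196) and the fits without B. chinense replicate 1, P. chinensis replicate 1 or 2, P. umbellatus replicate 2 or 3, or any 1 of the 3 controls (adjusted p = 0.05154 to 0.1708).

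MT2A in A549 lay at 27.64, 30.23 and 32.34 CPM in control and at 28.86, 30.41 and 38.11 CPM with P. chinensis (log2 fold change 0.08, SE 0.17, adjusted p = 0.7663). With B. chinense and P. umbellatus its log2 fold changes were 0.10 and 0.13 (adjusted p = 0.7226 and 0.618). The ranges of all 4 groups overlapped. MT1X lay at 6.38, 6.473 and 8.758 CPM in control and at 4.77, 5.019 and 5.098 CPM with P. chinensis (log2 fold change -0.55, SE 0.22, adjusted p = 0.06761), a difference that passed as lower without B. chinense replicate 3 (adjusted p = 0.04208). MT1F rested on 3 to 21 counts per library, so that differences well above its SE of 0.48 could go undetected at this depth. Its log2 fold change with P. umbellatus was -0.93 (adjusted p = 0.1792), which passed as lower without control replicate 2 (-1.35, adjusted p = 0.0292). MTF1 had log2 fold changes of 0.13, 0.04 and -0.02 with the 3 herbs, the last being 0.02 with upper quartile scaling, and did not pass. The summed metallothionein level was 39.43 ± 5.05 CPM (SD, n = 3) after P. chinensis, 42.28 ± 7.17 CPM after B. chinense and 41.44 ± 5.34 CPM after P. umbellatus, against 39.2 ± 4.35 CPM in control.

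Between herbs in A549, P. chinensis against B. chinense and against P. umbellatus, 0 of the 5 genes were called in either direction by edgeR or DESeq2, and 0 at an unadjusted p below 0.05. Among all genes 0.447% were higher and 1% lower against B. chinense, and 0.814% and 2.19% against P. umbellatus. SLC30A1 differed between P. chinensis and B. chinense by 0.04 (SE 0.05), and between P. chinensis and P. umbellatus by 0.10 (SE 0.05).

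An interaction term over all 24 libraries tested whether a herb acted differently in A549 and Huh7, given as the A549 effect minus the Huh7 effect. For P. chinensis 2 genes were lower and 1 higher, against 9.3% and 10.3% of 12924 genes. MT1X differed by -1.88 (SE 0.26, adjusted p = 1.937e-05) and MT2A by -1.54 (SE 0.32, adjusted p = 0.001568), and both calls held under each of the 30 other settings run. SLC30A1 differed the other way, by 0.35 (SE 0.10, adjusted p = 0.01319), and its call was lost without Huh7 P. chinensis replicate 1 or replicate 3, or without Huh7 control replicate 2 or replicate 3 (adjusted p = 0.05003 to 0.0682). MT1F (-0.99, adjusted p = 0.1428) and MTF1 (-0.26, adjusted p = 0.1186) did not pass. MT1F passed without A549 control replicate 2 (adjusted p = 0.005097), and MTF1 without any 1 of the 3 Huh7 P. umbellatus libraries (adjusted p = 0.03096 to 0.04793). The short transcripts had a median interaction of -0.25 for this herb.

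For B. chinense 0 of the 5 genes differed between the lines by edgeR or DESeq2, and 0 at an unadjusted p below 0.05, with 5.8% of all genes called in each direction. For P. umbellatus 2 genes were lower and 0 higher, against 15.3% and 19.1% of all genes. DESeq2 called 3 lower and 0 higher, as many as passed an unadjusted p of 0.05. MT1X differed by -0.74 (SE 0.26, adjusted p = 0.03058) and MTF1 by -0.32 (SE 0.12, adjusted p = 0.03896). The MT1X call was lost without A549 P. umbellatus replicate 1, A549 control replicate 3 or Huh7 P. umbellatus replicate 3 and under the replicate block (adjusted p = 0.05533 to 0.1113). That of MTF1 was lost in 8 of 30 other settings (adjusted p up to 0.1012): with no filter on low counts, and without any 1 A549 P. umbellatus library, A549 control replicate 1 or 3, Huh7 control replicate 2 or Huh7 P. umbellatus replicate 1. MT1F differed by -1.13 (SE 0.44, adjusted p = 0.05196) and passed in 12 of 30 other settings. MT2A (0.07) and SLC30A1 (-0.04) did not pass.

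**Figure D3:**
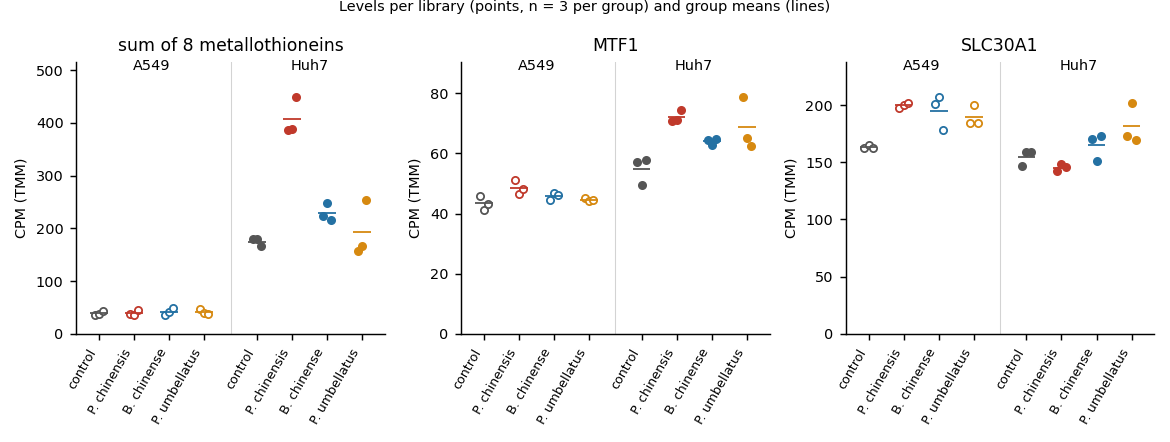
Summed level of the 8 metallothioneins of the table and levels of MTF1 and SLC30A1 (y axes, CPM with TMM scaling, from 0) in A549 (open points) and Huh7 (filled points), 1 point per library and a line at each group mean. The sum reaches 386 to 449 CPM with P. chinensis in Huh7 and stays between 35.4 and 49.7 CPM in A549, where SLC30A1 lies above its controls with each herb.

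The metallothionein transcripts resemble one another, which bears on how reads were shared among them. Of the 31-base words of its reference transcript, 46% were found in no other gene for MT1X, 58.6% for MT1H, 60.3% for MT1M, 68.5% for MT2A, 68.9% for MT1G, 77.4% for MT1E and 86.1% for MT1F. For MTF1 the figure was 98.1% and for SLC30A1 100%. The split of counts between single metallothioneins is therefore uncertain. Their sum does not depend on how reads were divided among the 8 summed genes, and sharing with genes outside the sum was not tested. The ratio of the sum with P. chinensis to control in Huh7 was 2.33 with TMM scaling, 2.41 with DESeq2 size factors and 2.52 with scaling to the library total.

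The other zinc transporters are given by their counts, beside the share of all genes called. With P. chinensis in Huh7 that share was 10.5% in each direction. Of the 10 SLC30 exporters, SLC30A1 included, 1 rose (SLC30A4, 0.52, adjusted p = 0.03647) and 1 fell (SLC30A10, best known for manganese export, -0.71, adjusted p = 0.0008625), with a median log2 fold change of -0.04. Of 11 SLC39 importers tested, of 14 listed, 1 rose (SLC39A6) and 2 fell (SLC39A5 and SLC39A14), with a median of -0.16. SLC39A5, an importer of the basolateral membrane in gut and pancreas, lay at 43.2 to 46 CPM in control and at 14.6 to 18 CPM with P. chinensis (log2 fold change -1.37, SE 0.20, adjusted p = 0.0004835).

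With P. umbellatus in Huh7 19.3% of all genes were called higher and 17.8% lower, and the counts of the herbs were not compared by a test. Of the exporters 5 rose (SLC30A1, SLC30A5, SLC30A6, SLC30A7 and SLC30A9) and 0 fell with edgeR, where 1 was lower at an unadjusted p below 0.05, with a median log2 fold change of 0.32 beside 0.03 over all genes. Of the importers 2 rose and 5 fell, with a median of -0.19. Listed genes outside the chosen ones were fitted with the main settings only. In the fit of the 6 libraries compared, SLC30A1 lost its call (adjusted p = 0.1148). Calls over all genes there fell from 2674 higher and 2464 lower to 512 and 715. SLC39A5 lay at 5 to 12.8 CPM (log2 fold change -2.18, SE 0.22, adjusted p = 0.0001796). With B. chinense 0 of the 10 exporters and 0 of the 11 importers were called in Huh7 by edgeR; at an unadjusted p below 0.05, 1 exporter was higher and 2 importers were lower.

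In A549 SLC30A7, which loads zinc into the secretory pathway, rose with each herb beside SLC30A1 (log2 fold changes 0.23, 0.22 and 0.29). SLC30A4 rose with B. chinense and P. umbellatus (0.42 and 0.48). Of the 10 importers tested there, SLC39A11 and SLC39A13 rose with each herb, SLC39A13 by 0.69 after P. chinensis, 0.63 after B. chinense and 0.56 after P. umbellatus. SLC39A10 fell with B. chinense (-0.36) and P. umbellatus (-0.34), and SLC39A14 passed as lower with B. chinense (-0.17, adjusted p = 0.01139). Compared directly in A549, P. chinensis had 0 of the 10 exporters and 0 of the 10 importers called against either other herb. Of all genes 0.447% were higher and 1% lower against B. chinense, and 0.814% and 2.19% against P. umbellatus. Among all genes tested in A549 against control, P. chinensis had 15.8% called higher and 17.1% called lower. For B. chinense the higher share was 13.1% and the lower share 15%. P. umbellatus gave a higher share of 13.4% beside a lower share of 14.8%. Transporters and other listed genes named with changes under 1 on the log2 scale were chosen after their values were seen.

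**Figure D4:**
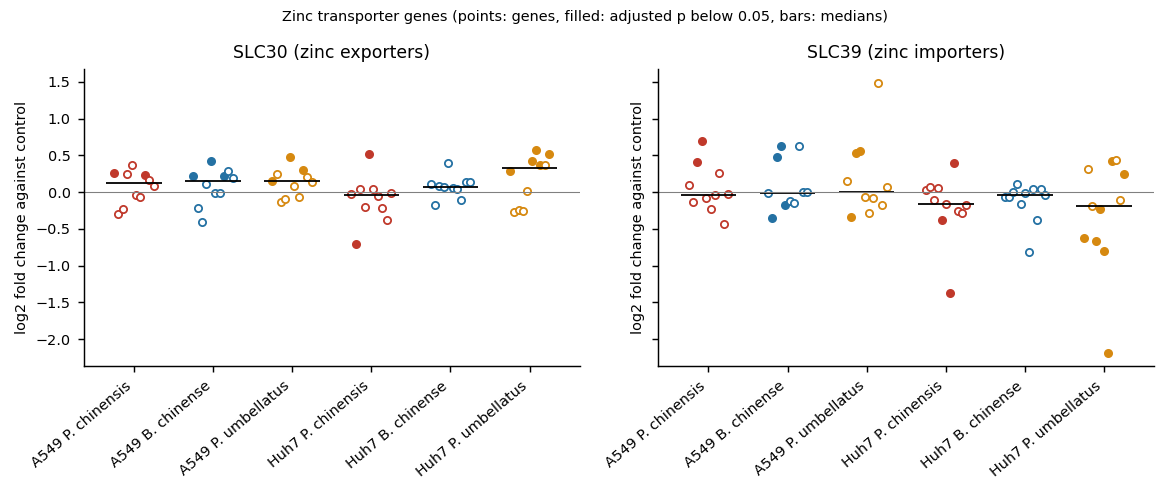
Log2 fold changes against control (y axis) of the SLC30 exporters (left, SLC30A1 included) and SLC39 importers (right) for each herb and line, 1 point per gene, filled where the adjusted p was below 0.05, with a bar at each median. The SLC30 median is 0.32 with P. umbellatus in Huh7 and -0.04 with P. chinensis, and the lowest point is SLC39A5 at -2.18.

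Other metal-handling and hormone-responsive genes were counted in the same way. With P. chinensis in Huh7, where 10.5% of all genes were called in each direction, 1 of 9 copper genes rose (SLC31A2) and 3 fell (ATP7B, CP and SLC31A1), and 1 of 9 iron genes tested rose (FTH1) and 4 fell (ACO1, SLC11A2, SLC40A1 and STEAP3). With P. umbellatus in Huh7, 1 of the 9 copper genes rose and 2 fell, beside 19.3% of all genes called higher and 17.8% lower. ATP7A, a copper pump, was called higher (log2 fold change 1.02, SE 0.35, adjusted p = 0.0374), and CCS (-0.54) and CP (-0.59) fell. The ATP7A libraries were widely spread at 4.53 to 14 CPM (47 to 119 counts) and overlapped the controls at 4.03 to 7.13 CPM. In A549 ATP7A was called higher with B. chinense (0.41) and P. umbellatus (0.44), beside 13.1% and 13.4% of all genes. MTF2 and ZNF658, listed as metal-responsive factors beside MTF1, did not pass with P. chinensis in either line. In A549 both still lay apart from control, MTF2 at 19 to 22.2 CPM against 23.2 to 27.8 CPM. ZNF658 lay at 14.3 to 19.2 CPM against 11.4 to 13.7 CPM. Of the 3 factors 0 were called there between P. chinensis and either other herb. ZNF658 in Huh7 rested on 8 to 17 counts per library with P. chinensis. In A549 MTF2 fell with B. chinense (-0.43) and P. umbellatus (-0.44), and ZNF658 rose with B. chinense (0.59). In Huh7 MTF2 rose with P. umbellatus (0.41).

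Of 9 glucocorticoid-responsive genes, 4 rose and 1 fell with P. chinensis in Huh7, beside 10.5% of all genes in each direction. At an unadjusted p below 0.05, 5 were higher and 3 lower. DUSP1, a phosphatase of MAP kinases that many stimuli induce, rose most, from 19.5 to 22.6 CPM in control to 90.5 to 93.7 CPM (log2 fold change 2.18, SE 0.13, adjusted p = 5.031e-07). The kinase gene SGK1 rose by 0.66, ERRFI1 by 0.42 and the receptor gene NR3C1 by 0.43. FKBP5, a chaperone gene strongly induced by glucocorticoids, fell (-0.40, adjusted p = 0.005033). FKBP5 fell in A549 as well, by 0.89 after P. chinensis, 0.71 after B. chinense and 0.68 after P. umbellatus on the log2 scale. SGK1 fell in A549 with B. chinense (log2 fold change -1.57, SE 0.33, adjusted p = 0.002753). Its treated libraries were widely spread, at 4.13 to 18.4 CPM (28 to 167 counts), below controls at 32.6 to 38 CPM. With that herb 1 gene of the 8 tested rose (NR3C1) and 4 fell (DUSP1, ERRFI1, FKBP5 and SGK1), beside 13.1% of all genes higher and 15% lower. With P. chinensis in A549, KLF9 (0.82) and PER1 (0.62) rose and ERRFI1 and FKBP5 fell, beside 15.8% and 17.1% of all genes. There SGK1 lay below its controls at 15.7 to 25.9 CPM and TSC22D3 above them (12 to 13.4 against 8.95 to 9.21 CPM), and neither passed. After P. umbellatus in A549, 0 of 8 rose with edgeR (1 at an unadjusted p below 0.05) and 4 fell (DUSP1, ERRFI1, FKBP5 and SGK1), beside 13.4% and 14.8% of all genes. In Huh7 with B. chinense DUSP1 alone of the 9 passed, as higher (0.75, adjusted p = 0.01143). With P. umbellatus in Huh7, 4 rose (DUSP1 by 0.93, SGK1 by 0.72, NR3C1 by 0.60 and ERRFI1 by 0.41) and 2 fell, TSC22D3 (-0.72) and ZBTB16 (-1.04, SE 0.27, adjusted p = 0.01219), beside 19.3% and 17.8% of all genes.

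The genes whose 6 log2 fold changes against control (3 herbs in 2 lines) lay closest to those of MT2A, MT1X and MT1F were sought among 9947 other genes. The measure was the root mean square difference over the 6 values, which share controls within a line. For MT2A these were LGALS1 (0.12), ELF3 (0.19) and MMP24 (0.20), and for MT1X ELF3 (0.20), ZNF114 (0.21) and CACNG4 (0.22). For MT1F, whose counts in A549 were low, they were TBK1 and MAP3K8 (both 0.23) and HSPA2 (0.24). LGALS1, which codes for the lectin galectin-1, had a log2 fold change of 1.62 with P. chinensis in Huh7, beside 1.67 for MT2A. Such closeness follows from the way these genes were picked and is a description only. The other chosen genes were left out of the search.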

How the data were processed

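Total RNA was sequenced after ribosomal depletion with a stranded, paired-end protocol. Per the submitters' processing notes and the study's methods, reads were checked with FastQC and quantified with kallisto against Ensembl GRCh38.p13 transcripts, with versions of these tools not given in the sources used here. The table deposited by the authors holds estimated counts, whole in every cell and not normalized, and keeps protein-coding genes whose mean exceeded 5 (lowest mean found 5.04). Of 14585 genes, 14584 had a symbol and were used. Because kallisto shares reads among similar transcripts, single metallothionein counts are uncertain.

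Groups came from the labels. In each line, genes averaging more than 5 counts across its 12 libraries were tested with edgeR 4.0.16 (R 4.3.3; quasi-likelihood, TMM, prior count 2, two-sided, 1 coefficient per group), with Benjamini-Hochberg adjustment over all genes tested and a threshold of 0.05. Line differences and interactions used all 24 libraries and genes passing in both lines. SEs were taken from the fold change and its F statistic. Alternatives were DESeq2 1.42.0, other size factors, filters, a replicate block, fits of the 6 libraries compared, and each library left out. The code was tested on simulated data. The members and gene lists were chosen with earlier results of these data known. All members are named, listed genes where the adjusted p was below 0.05 and the log2 change at least 1, and, for members with a root mean square change of at least 0.5, the 3 most alike genes averaging at least 50 counts in each line. Totals of 6803704 to 24345541 counts per library limit precision for genes with few counts. The limit of 3 counts covers counting error only. The comparison with short transcripts was added after the data were seen.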

Additional observations from a re-analysis of the deposited data

Results flagged for a closer look

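The response to a herb differed between A549 and Huh7 for the following genes, each by a test of the difference itself (edgeR interaction over 24 libraries, A549 effect minus Huh7 effect, on the log2 scale). For P. chinensis MT2A differed by -1.54 and MT1X by -1.88, both genes having risen in Huh7 without passing in A549, and SLC30A1 differed by 0.35, having risen in A549 without passing in Huh7. For P. umbellatus MT1X differed by -0.74 without passing in either line (in Huh7 it passed as higher with DESeq2, adjusted p = 0.04496, and without P. umbellatus replicate 1, adjusted p = 0.006708), and MTF1 differed by -0.32, having risen in Huh7.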

How the results depend on the processing

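Over the 90 comparisons of single genes, 1797 of 1930 alternative fits kept direction and side of the threshold, 67 lost the call, 35 gained one and 31 changed sign, each of these on a value that had not passed. The 7 calls with P. chinensis in Huh7 held throughout, and so did the MT1X and MT2A interactions. Of 620 alternative counts of called genes 579 stayed within 1.5 times the value reported. With the 6 libraries compared alone, the count higher with B. chinense in Huh7 was 4 in place of 0, with P. umbellatus the counts higher and lower were 0 and 0 in place of 2 and 1, and the 1 lower in P. chinensis against P. umbellatus became 0. For A549 control against Huh7 control the count higher was 1 with upper quartile scaling and the count lower 5 with no filter, which admits more genes. The count lower for the P. umbellatus interaction was 1 with no filter. The cause of the other shifts was not tested.

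Replicate numbers did not pair the libraries: deviations of same-numbered libraries correlated at -0.06 to 0.05 in A549 and -0.03 to 0.04 in Huh7. With the replicate number as a block, the 1 gene higher with P. umbellatus in A549 became 0 (SLC30A1, log2 fold change 0.155), the count lower for the P. umbellatus interaction became 1, and MT1G (0.79) and MT1F (0.524) lost their calls in P. chinensis against B. chinense in Huh7, with 4 still called there.

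Leaving out 1 library at a time, the counts ranged from 0 to 1 (lower with P. chinensis, and both higher and lower with P. umbellatus, in A549), 0 to 1 (higher with B. chinense in Huh7), 0 to 4 higher and 1 to 2 lower (P. umbellatus in Huh7), 1 to 7 (P. chinensis against B. chinense in Huh7), 0 to 1 higher (P. chinensis interaction) and 0 to 3 lower (P. umbellatus interaction). The ratio of summed metallothionein levels of Huh7 to A549 control ranged from 4.276 to 4.762, the latter without A549 control replicate 3.

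Sign changes fell on values that had not passed, several of them near 0. The largest of these values was -0.503, for MT1F in the B. chinense interaction. For MT1F in P. chinensis against B. chinense (A549) the log2 difference was -0.002 with DESeq2 size factors, -0.009 with DESeq2, -0.001 with no filter, -0.005 with filterByExpr, 0 with the 6 libraries compared and -0.162 to 0.312 with 1 library left out. With upper quartile scaling both MTF1 (P. umbellatus, A549) and SLC30A1 (P. chinensis, Huh7) came to 0.018. With 1 library left out, MT2A in A549 ranged from -0.061 to 0.17 with P. chinensis, -0.094 to 0.27 with B. chinense, -0.013 to 0.204 with P. umbellatus, -0.189 to 0.175 in P. chinensis against B. chinense and -0.193 to 0.099 in P. chinensis against P. umbellatus. In A549, MT1F ranged from -0.606 to 0.319 with P. chinensis and -0.61 to 0.314 with B. chinense, MT1X from -0.199 to 0.08 with B. chinense, MTF1 from -0.061 to 0.023 with P. umbellatus, and SLC30A1 from -0.014 to 0.082 in P. chinensis against B. chinense. In Huh7 with P. umbellatus, MT1G ranged from -0.615 to 0.06, MT2A from -0.164 to 0.45 and MT1M from -0.269 to 0.382, and MTF1 in P. chinensis against P. umbellatus from -0.006 to 0.185. Interactions ranged from -0.951 to 0.05 for MT1F (B. chinense) and from -0.276 to 0.332 for MT2A (P. umbellatus). Counts of called genes over the whole table also moved by more than 1.5 times. In Huh7 with P. chinensis, 1450 higher and 1451 lower became 2884 and 2976 in the fit of 6 libraries, with B. chinense 72 and 105 became 399 and 723 (DESeq2 218 and 297; 43 higher under the block), and with P. umbellatus 2674 and 2464 became 512 and 715. For P. chinensis against B. chinense in Huh7, 540 and 543 became 1478 and 1725 (989 lower with DESeq2), and against P. umbellatus 2295 and 2612 became 846 and 1212. In A549, P. chinensis against B. chinense gave 61 and 137, 131 and 324 with DESeq2, 36 and 86 under the block and 13 and 20 with 6 libraries, and against P. umbellatus 111 and 299, 501 lower with DESeq2, 60 and 198 under the block and 66 and 164 with 6 libraries.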
